A study of Homo sapiens with 6 samples.

Results

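The genes described here encode 10 heterogeneous nuclear ribonucleoproteins (hnRNPs) of the A, C, D, F and H groups. They were taken as the rows of the count table whose symbol was HNRNPA0, HNRNPA1, HNRNPA2B1, HNRNPA3, HNRNPC, HNRNPD, HNRNPF, HNRNPH1, HNRNPH2 or HNRNPH3, which gave 10 of 28675 genes. All 10 passed the filter on low counts and were among the 16226 genes tested. The cells were MDA-MB-231, a human line from a triple-negative breast cancer, the kind that lacks the estrogen and progesterone receptors and amplified HER2. The labels name 2 genotypes, LARP6 overexpression (3 libraries) and No-load control (3 libraries), and give no other allele, agent or time. LARP6 belongs to the La-related proteins, which bind RNA, and the study asked what LARP6 binds in these cells and how it acts on splicing. Neither the way LARP6 was introduced nor the number of cultures or clones behind each genotype is given in the sources used here. A p-value therefore rests on the spread among libraries alone, and that spread may be technical.

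Heterogeneous nuclear ribonucleoproteins coat newly made RNA in the nucleus and take part in splice site choice, export and decay. Proteins of the A group bind UAG-containing motifs and often act against exon inclusion, in opposition to SR proteins. Proteins of the F and H group bind runs of G through quasi-RNA recognition motifs and can favour or block an exon depending on where they bind. hnRNP C binds runs of U, and hnRNP D, also called AUF1, binds AU-rich elements and is known for its part in mRNA decay. Transcripts of many of these genes have isoforms with retained introns or premature stops, which the counts per gene used here do not tell apart from the coding ones.

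Total counts were 29409101 to 31648120 in LARP6 libraries and 29723790 to 33387050 in control libraries. LARP6 itself matched the label of every library, with 1995 to 2198 CPM (counts scaled to a common library size) in LARP6 libraries and 40.7 to 44.2 CPM in control libraries. The mesenchymal marker VIM was at 3307 to 3397 CPM in LARP6 libraries and 3112 to 3173 CPM in control libraries. CD44, CAV1 and AXL, which were also expected in these cells, were at 492 CPM or more in every library. The estrogen receptor gene ESR1 was at most at 0.0329 CPM and the progesterone receptor gene PGR at most at 0.221 CPM. CDH1, which was expected to be nearly absent, was detected in every library, at 6.71 to 8.34 CPM. The HER2 gene ERBB2, expected to be low, was at 54.2 to 59.3 CPM. Chi-square per gene was 2.06 to 3.62 for the 6 pairs of libraries of the same genotype, above sampling noise, so no library repeats another and all 6 were kept. This does not show that they came from separate cultures.

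HNRNPH1 and HNRNPH3 were higher in the LARP6 libraries, and the other 8 genes were not called. HNRNPH1 was 11.4% higher (95% interval 7.24% to 15.7%) and HNRNPH3 8.68% higher (95% interval 3.92% to 13.7%). Calls were made at an adjusted p below 0.05 in edgeR's quasi-likelihood test over all genes. That made 2 of 10 genes higher and 0 lower, while 2.43% of all genes tested were called higher and 3.6% lower. Among the 3405 genes with a mean CPM at or above that of the lowest of the 10, 3.49% were called higher and 11.9% lower. At an unadjusted p below 0.05 a single further gene, HNRNPH2, was lower, and DESeq2 and limma-voom also called 0 of the 10 lower. With offsets for transcript GC content and length, 1 of the 10 was called higher and 2 lower, in a fit that called 1.04% of all genes higher and 2.54% lower. In 2 of the 10 genes all LARP6 libraries lay above all control libraries and in 1 of the 10 all lay below, against 10.6% and 11.7% of all genes tested. The median log2 fold change of the 10 genes was 0.02, against 0.00 over all genes tested (0.0038 before rounding). Of the 10 values, 6 were positive and 4 negative. Of the 3405 genes as well expressed as the lowest of the 10, 357 had all LARP6 libraries above all control libraries and 898 below. Their median log2 fold change was -0.024.

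**Figure D1:**
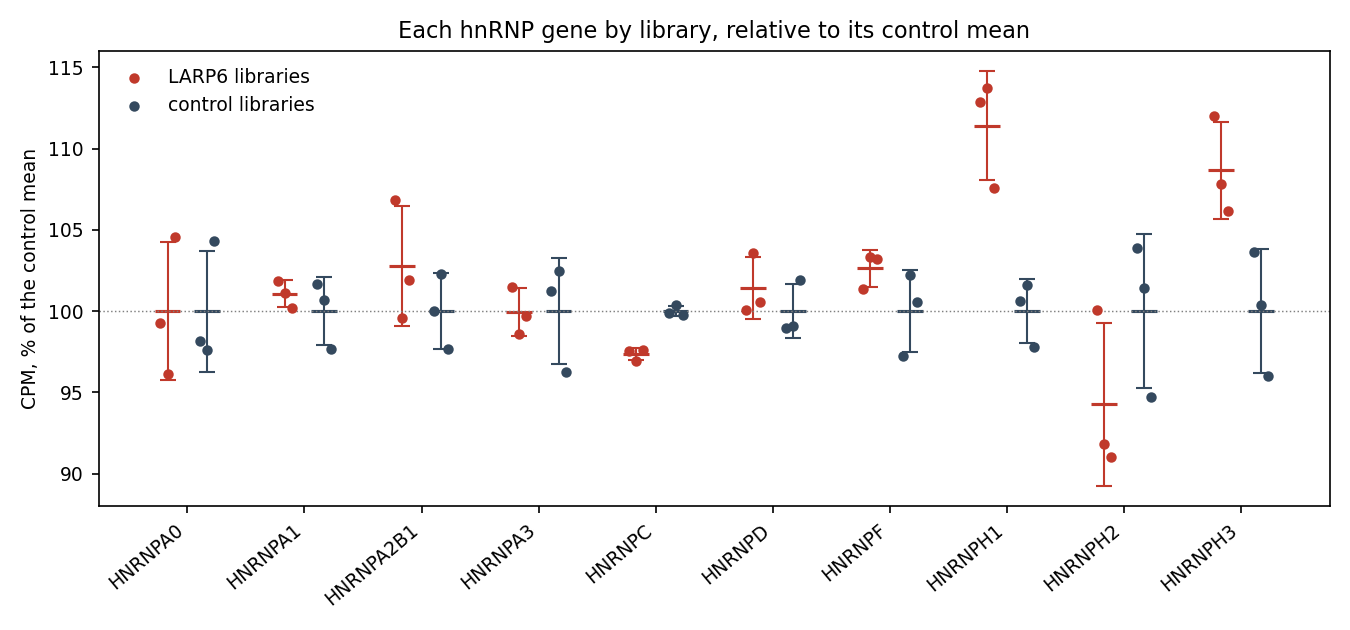
CPM of each hnRNP gene in each library as a percentage of that gene's control mean, with LARP6 libraries in red left of control libraries in dark blue, bars for the mean and whiskers for 1 SD (n = 3 each). All LARP6 libraries lie above all control libraries for HNRNPH1 and HNRNPH3 and below them for HNRNPC, and the groups overlap for the other 7 genes.

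HNRNPH1 and HNRNPH2 encode closely similar proteins, so it matters whether their reads can be told apart. Their coding sequences are of the same length, 1350 bases, and 87.63% identical, and the longest stretch in which they do not differ is 50 bases, shorter than a read of 150 bases. The first 120 bases of each coding sequence are shown because the 2 genes differed in sign. They are from the principal transcripts of GENCODE v29 on GRCh38, 5′ to 3′, with capitals at the 23 positions where they differ.
HNRNPH1: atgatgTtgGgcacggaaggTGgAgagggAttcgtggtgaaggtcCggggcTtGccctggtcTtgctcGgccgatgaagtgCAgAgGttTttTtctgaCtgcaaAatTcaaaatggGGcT
HNRNPH2: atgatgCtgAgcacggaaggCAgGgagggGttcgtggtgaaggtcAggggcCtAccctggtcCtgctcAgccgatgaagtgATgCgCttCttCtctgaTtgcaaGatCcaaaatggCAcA
Of the 3518 windows of 150 bases in the principal HNRNPH1 transcript, none occurred in a transcript of another gene, and the same held for HNRNPH3 and HNRNPF. Only exact matches of principal transcripts were searched, 3.667 of 9.48 kb of exons for HNRNPH1 and 2.339 of 5.37 kb for HNRNPH3. Sharing in their other exons was not examined. Of the 2074 windows of HNRNPH2, 10.4% occurred in the overlapping readthrough gene RPL36A-HNRNPH2 and none elsewhere. That readthrough row had 3.84 ± 0.509 CPM in LARP6 libraries and 4.15 ± 0.335 CPM in control libraries (SD, n = 3 each), a small level beside that of HNRNPH2.

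HNRNPH1 (ENSG00000169045.17, chr5:179614178-179634784, minus strand, GRCh38 in GENCODE v29) had 294, 296 and 280.3 CPM in LARP6 libraries 1, 2 and 3, against 262, 265 and 255 CPM in control libraries 1, 2 and 3. Every LARP6 library was above every control library, and LARP6 library 3 was the lowest of its group. The mean was 290.3 ± 8.71 CPM in LARP6 libraries and 261 ± 5.14 CPM in control libraries (SD, n = 3 each), 0.16 ± 0.03 on the log2 scale (SE, edgeR adjusted p = 2.28e-05). The call held with each of the 6 libraries left out in turn, at a log2 fold change of 0.14 to 0.18. It was lost on the deposited FPKM values with limma, where the change was 0.17 (adjusted p = 0.0616) with 1 added before the logarithm. Of the 10 genes HNRNPH1 has the most annotated isoforms, 50 transcripts in GENCODE v29, of which 26 are protein coding, 16 retain an intron and 4 are targets of nonsense-mediated decay. Whether coding or non-coding isoforms made up the difference cannot be read from counts per gene.

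HNRNPH3 (ENSG00000096746.18, chr10:68331174-68343191, plus strand) encodes the shortest protein of the H group and has no isoform annotated with a retained intron. Its level was 139, 134 and 132 CPM in LARP6 libraries 1, 2 and 3, against 129, 125 and 119 CPM in control libraries 1, 2 and 3. The groups did not overlap, but the gap between LARP6 library 3 and control library 1 was small beside the spread within either group. The mean was 135 ± 3.73 CPM in LARP6 libraries and 124 ± 4.75 CPM in control libraries (SD, n = 3 each), 0.12 ± 0.03 on the log2 scale (SE, edgeR adjusted p = 0.0126). The call was lost without LARP6 library 1 (0.10, edgeR adjusted p = 0.161) and without control library 3 (0.09, edgeR adjusted p = 0.117). It was also lost once each library's trend of expression on transcript GC content and length was taken out, where it was 0.07 on the log2 scale (edgeR adjusted p = 0.249).

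HNRNPH2 (ENSG00000126945.9, chrX:101408295-101414133, plus strand), the X-linked member of the group, had 64.1, 58.8 and 58.3 CPM in LARP6 libraries 1, 2 and 3, against 66.5, 65.0 and 60.7 CPM in control libraries 1, 2 and 3. LARP6 library 1 lay within the range of the control libraries, so the groups overlapped. The log2 fold change was -0.08 ± 0.04 (SE, edgeR adjusted p = 0.258), with a 95% interval for the change of -11.0% to -0.0954%. HNRNPH2 was the lowest of the 10 genes in counts, at 1789 to 2027 per library, and had the largest standard error of the 10.

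HNRNPF (ENSG00000169813.17, chr10:43385617-43409166, minus strand), whose protein binds the same G runs, had 330.5, 337 and 337 CPM in LARP6 libraries 1, 2 and 3, against 317, 333 and 328 CPM in control libraries 1, 2 and 3. The groups overlapped, with control library 2 above LARP6 library 1. The log2 fold change was 0.04 ± 0.03 (SE, edgeR adjusted p = 0.488), and the 95% interval ran from -1.10% to 6.51%.

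Ratios of 2 genes within a library do not depend on how libraries are scaled, and 5 pairs were compared in this way on the deposited FPKM values. The ratio of HNRNPH1 to HNRNPH2 was 1.11, 1.22 and 1.16 in LARP6 libraries 1, 2 and 3, against 0.954, 0.987 and 1.02 in control libraries 1, 2 and 3. It was higher in every LARP6 library than in any control library, by 0.24 on the log2 scale. The ratio of HNRNPH1 to HNRNPF was likewise higher in all LARP6 libraries, at 0.299 ± 0.0105 against 0.276 ± 0.0087 in control libraries (SD, n = 3 each), a log2 difference of 0.12. For both ratios the two-sided exact permutation test gave p = 0.1, the smallest that 3 libraries against 3 allow, and an adjusted p of 0.25 over the 5 pairs. The ratio of HNRNPH1 to HNRNPH3 overlapped between groups, at 1.22 ± 0.0309 in LARP6 libraries and 1.19 ± 0.0309 in control libraries (SD, n = 3 each; exact permutation p = 0.6, adjusted p = 0.6). HNRNPA1 to HNRNPA2B1 (log2 difference -0.02, exact permutation p = 0.4, adjusted p = 0.5) and HNRNPA2B1 to HNRNPA3 (0.04, exact permutation p = 0.2, adjusted p = 0.333) also overlapped.

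**Figure D2:**
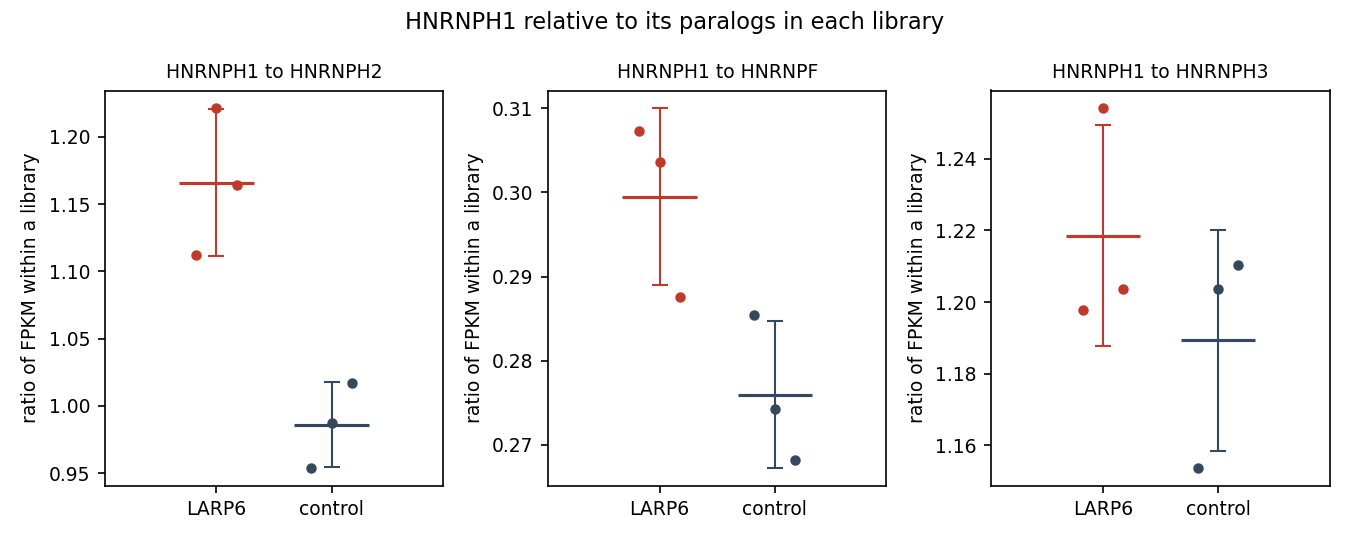
Ratio of the FPKM of HNRNPH1 to that of HNRNPH2, HNRNPF and HNRNPH3 within each library, LARP6 libraries left in red and control libraries right in dark blue, with bars for the mean and whiskers for 1 SD (n = 3 each); the axes do not start at 0. The groups are apart for the first 2 ratios and overlap for the ratio to HNRNPH3.

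The A group genes, which include the most abundant hnRNP proteins of many cells, did not pass the test. HNRNPA1 (ENSG00000135486.19, chr12:54280193-54287088, plus strand) had 883, 877 and 869 CPM in LARP6 libraries 1, 2 and 3, against 882, 873 and 847 CPM in control libraries 1, 2 and 3. The groups overlapped, and the log2 difference was 0.02 ± 0.03 (SE, edgeR adjusted p = 0.804). HNRNPA2B1 (ENSG00000122566.22, chr7:26173057-26201529, minus strand), which also binds RNA marked with m6A, had 869, 809.8 and 829 CPM in LARP6 libraries 1, 2 and 3, against 814, 832 and 795 CPM in control libraries 1, 2 and 3. LARP6 library 1 was the highest of the 6 and LARP6 library 2 lay below 2 of the control libraries. The log2 fold change was 0.04 ± 0.03 (SE, edgeR adjusted p = 0.426).

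HNRNPA3 (ENSG00000170144.21, chr2:177212563-177223958, plus strand), a close relative of HNRNPA2B1, averaged 296 ± 4.35 CPM in LARP6 libraries and 296 ± 9.73 CPM in control libraries (SD, n = 3 each). HNRNPA0 (ENSG00000177733.7, chr5:137745651-137754376, minus strand), an AU-rich element binding member with a single annotated transcript, averaged 168 ± 7.16 CPM in LARP6 libraries and 168 ± 6.26 CPM in control libraries (SD, n = 3 each). Both had group means closer than the spread between replicates, with 95% intervals of -3.75% to 3.81% for HNRNPA3 and -4.19% to 4.33% for HNRNPA0. Their signs turned under other scalings, to 0.03 on the log2 scale for each with library size only. With GC and length offsets they were at -0.09 for HNRNPA3 (edgeR adjusted p = 0.0177) and -0.08 for HNRNPA0 (edgeR adjusted p = 0.599).

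Processed copies of HNRNPA1 and HNRNPA3 can take reads from their parents. Of the 3972 windows of 150 bases in the principal HNRNPA1 transcript, 22.2% also occurred in transcripts of other genes, and 22.2% of the 1918 windows of HNRNPA3 did so. The 18 pseudogene rows of HNRNPA1 together held 1351 counts in LARP6 libraries and 1361 counts in control libraries, which was 1.68% of the counts of HNRNPA1. For HNRNPA3 the 9 rows held 37 counts in LARP6 libraries and 37 counts in control libraries. With the pseudogene rows added to their parents, none of the 10 genes changed its call. That sum covers only reads counted on those rows, and HNRNPA1L2, which shared 4.08% of the HNRNPA1 windows, was not among them. How reads that match several genes were counted is not given, so the sum does not settle read sharing.

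HNRNPC (ENSG00000092199.18, chr14:21209136-21269494, minus strand), whose protein binds U runs and keeps Alu elements from being spliced in as exons, was the steadiest of the genes within groups. Its level was 678, 674 and 678 CPM in LARP6 libraries 1, 2 and 3, against 694, 697 and 693 CPM in control libraries 1, 2 and 3. All LARP6 libraries were below all control libraries. The log2 fold change was -0.04 ± 0.03 (SE, edgeR adjusted p = 0.429), a change of -2.63% with a 95% interval of -5.92% to 0.766%, and was not called. In deposited FPKM the groups met, at 82.3, 82.1 and 82.7 in LARP6 libraries 1, 2 and 3 and 83.5, 83.3 and 82.6 in control libraries 1, 2 and 3.

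HNRNPD (ENSG00000138668.19, chr4:82352498-82374503, minus strand) had 427, 442 and 429 CPM in LARP6 libraries 1, 2 and 3, against 422, 423 and 435 CPM in control libraries 1, 2 and 3. The groups overlapped, with control library 3 above 2 of the LARP6 libraries. The log2 fold change was 0.02 ± 0.03 (SE, edgeR adjusted p = 0.746), with a 95% interval of -2.18% to 5.11%.

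**Figure D3:**
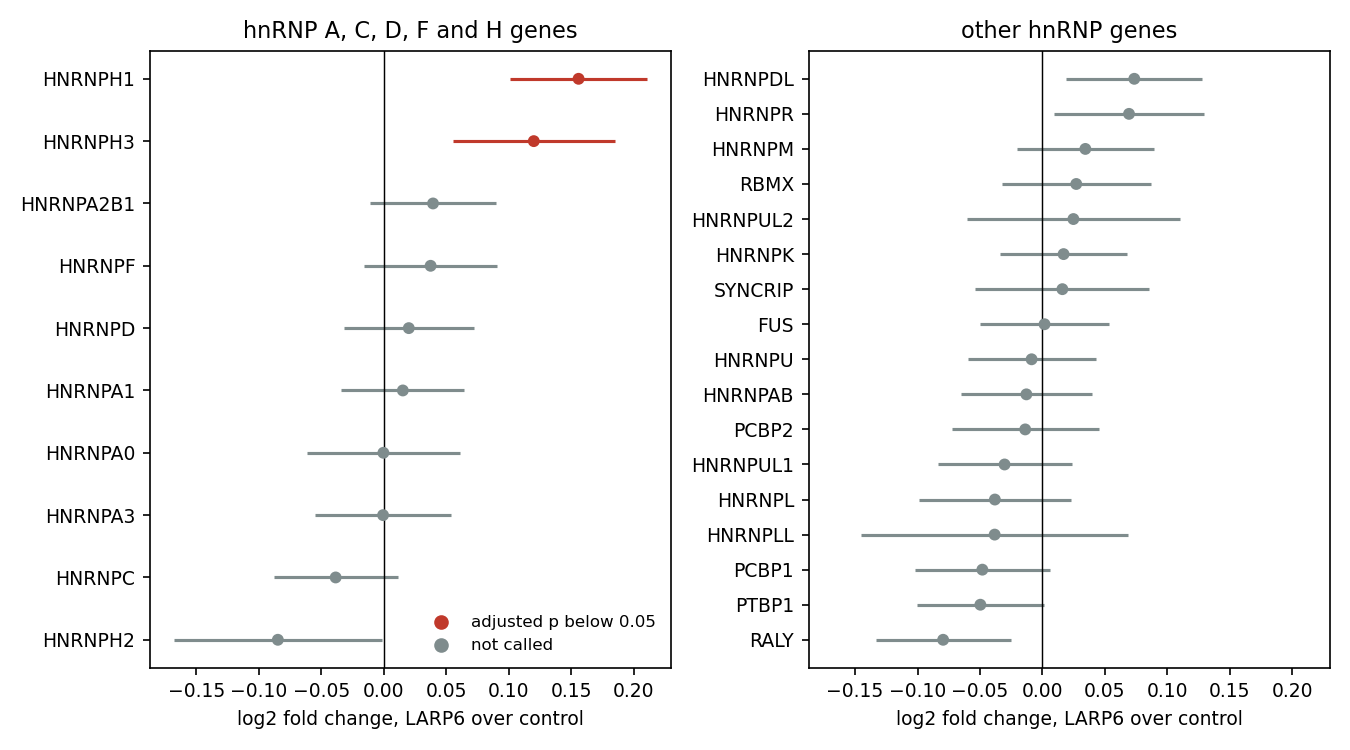
log2 fold change of LARP6 over control with its 95% interval for the 10 hnRNP genes (left) and 17 other hnRNP genes (right), red where the edgeR adjusted p was below 0.05 and grey where not. HNRNPH1 and HNRNPH3 are the called genes, and the largest change on the right is -0.08 for RALY.

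Several of these values moved when a smooth trend on transcript GC content and length was taken out. Whether that trend is technical or a change in expression was not tested. The smooth trend on GC content and length, a difference between groups in what the fit attributes to these properties, was 0.00 for HNRNPH1 and 0.05 to 0.09 (log2) for HNRNPA0, HNRNPA1, HNRNPA2B1, HNRNPA3, HNRNPC, HNRNPD and HNRNPH3, whose longest transcripts have a GC content of 37.3% to 43.0%. It was 0.04 for HNRNPH2 and 0.02 for HNRNPF. With that trend taken out, HNRNPH1 stayed called as higher at 0.15 ± 0.03 (SE, edgeR adjusted p = 5.27e-05). HNRNPC was then called as lower at -0.11 ± 0.02 (SE, edgeR adjusted p = 0.000729) and HNRNPA3 at -0.09 ± 0.02 (SE, edgeR adjusted p = 0.0177). With HNRNPH1 given the median GC content of its transcripts, 43.3% in place of 51.6% for its longest, and every other gene treated likewise, the change of HNRNPH1 was 0.11 (edgeR adjusted p = 0.00242). In that fit, added after seeing the data, HNRNPC (edgeR adjusted p = 0.0501) and HNRNPA3 (edgeR adjusted p = 0.380) were not called, and HNRNPH2 was called as lower at -0.14 (edgeR adjusted p = 0.0377). That made 1 of the 10 higher and 1 lower, against 1.15% and 2.46% of all genes tested.

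**Figure D4:**
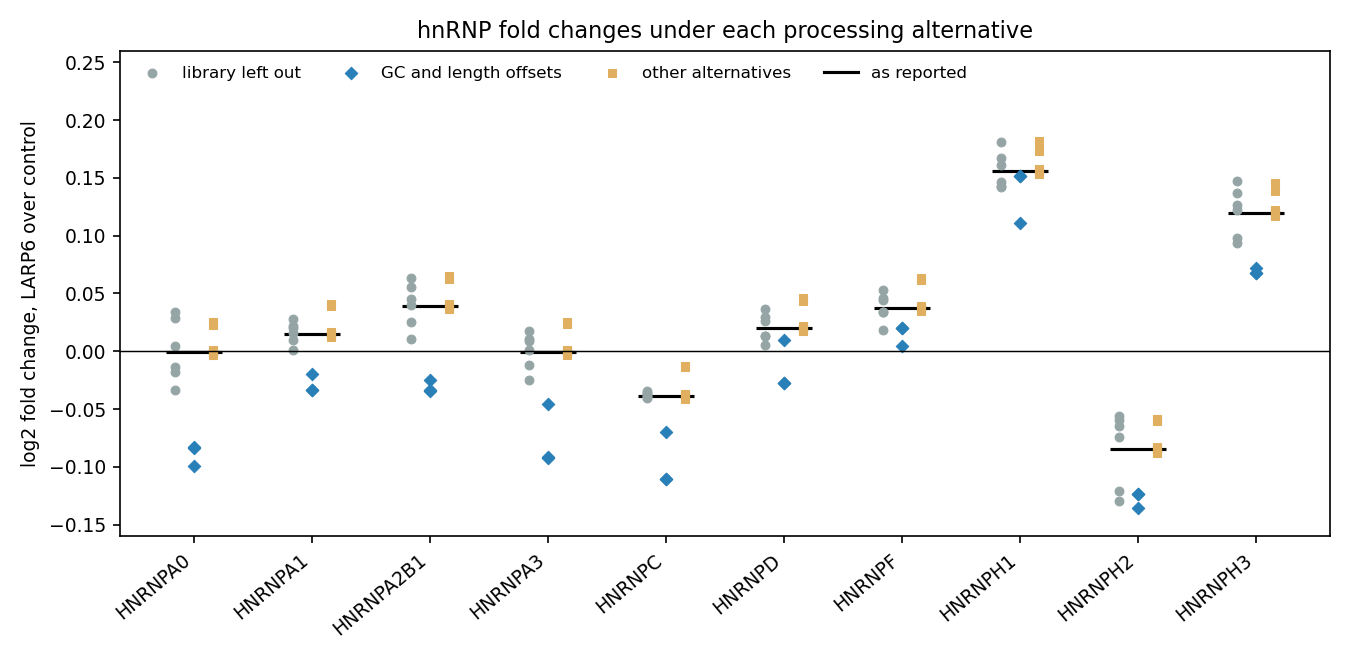
log2 fold change of LARP6 over control for each hnRNP gene as reported (black bar), with each library left out (grey circles), with GC and length offsets (blue diamonds) and under the other alternatives (yellow squares). HNRNPH1, HNRNPH3 and HNRNPF stay above 0 and HNRNPC and HNRNPH2 below 0 in all 22 alternatives. HNRNPA0, HNRNPA1, HNRNPA2B1, HNRNPA3 and HNRNPD fall on both sides. The alternative with an adjusted p below 0.01 changes the threshold alone, so its fold changes are those reported.

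Promoter windows are shown for the 3 H genes because HNRNPH1 and HNRNPH3 were higher together while HNRNPH2 was not. They are from RefSeq on GRCh38.p14, from 250 bases before to 50 after an annotated start, 5′ to 3′ on the gene's strand, and 9 of the 10 genes matched a window by symbol. Where a gene has several starts, the window with the most GENCODE v29 coding transcripts starting within 50 bases is shown. The windows are chr5:179623622-179623921 (minus strand) for HNRNPH1, chr10:68331814-68332113 (plus strand) for HNRNPH3 and chrX:101407972-101408271 (plus strand) for HNRNPH2. Coding transcripts starting within 50 bases numbered 9 for HNRNPH1, 1 for HNRNPH3 and 0 for HNRNPH2, so the HNRNPH2 start lacks such backing. Capitals mark matches, on either strand, to 4 motifs. These are CCAAT (the NF-Y box), CACGTG (an E-box), the ETS motif CCGGAAG, and TCTCGCG, an element of many housekeeping promoters.
HNRNPH1: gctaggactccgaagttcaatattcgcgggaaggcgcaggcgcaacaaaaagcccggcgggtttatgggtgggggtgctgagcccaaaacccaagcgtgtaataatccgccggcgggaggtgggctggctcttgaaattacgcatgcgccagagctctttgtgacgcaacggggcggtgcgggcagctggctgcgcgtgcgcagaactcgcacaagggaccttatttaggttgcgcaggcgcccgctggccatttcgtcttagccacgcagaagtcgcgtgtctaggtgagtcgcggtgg
HNRNPH3: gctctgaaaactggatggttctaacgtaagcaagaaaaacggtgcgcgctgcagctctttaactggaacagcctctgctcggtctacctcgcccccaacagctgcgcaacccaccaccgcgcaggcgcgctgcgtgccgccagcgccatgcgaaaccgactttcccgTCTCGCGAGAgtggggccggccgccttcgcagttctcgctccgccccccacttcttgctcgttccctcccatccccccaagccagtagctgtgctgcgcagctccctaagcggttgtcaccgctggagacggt
HNRNPH2: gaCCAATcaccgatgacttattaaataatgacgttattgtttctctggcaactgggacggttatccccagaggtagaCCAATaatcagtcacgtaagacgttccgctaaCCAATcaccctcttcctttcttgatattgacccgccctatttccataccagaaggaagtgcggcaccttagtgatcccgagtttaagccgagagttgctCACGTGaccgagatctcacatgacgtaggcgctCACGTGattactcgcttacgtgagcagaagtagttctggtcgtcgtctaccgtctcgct
The HNRNPH1 window held none of the 4 motifs. The HNRNPH3 window held TCTCGCG once on each strand, the 2 matches overlapping in a palindrome, and this motif was in 3.49% of 35116 RefSeq windows of the same length. The HNRNPH2 window held 3 matches to CCAAT and 2 to CACGTG, motifs found in 34.61% and 7.26% of windows. The ETS motif, found in 10.26% of windows, was in none of the 3. These matches describe the letters and not binding, and the 2 windows shown for HNRNPH1 and HNRNPH3 shared none of the 4 motifs. Among windows at their other annotated starts, 1 of each gene held a CCAAT match.

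Levels can be compared between genes only per length, and the length matters here. By the authors' FPKM, averaged over the 6 libraries, the order was HNRNPA1 (115), HNRNPF (89.1), HNRNPC (82.7), HNRNPA2B1 (57.7), HNRNPD (54.3), HNRNPA3 (39.2), HNRNPH1 (25.6), HNRNPH2 (23.9), HNRNPH3 (21.3) and HNRNPA0 (17.02). HNRNPA2B1 and HNRNPD overlapped across libraries, as did HNRNPH1 with HNRNPH2 and HNRNPH2 with HNRNPH3, and the other neighbours were apart in all 6 libraries. The length implied by the deposited values was 10.7 kb for HNRNPH1, close to the 9.48 kb covered by the exons of all its isoforms and longer than its principal transcript of 3.667 kb. For HNRNPH2, with 1 transcript, it was 2.60 kb against a transcript of 2.223 kb, and for HNRNPA0, also with 1, 9.87 kb against 8.726 kb. The implied length therefore exceeded the only transcript and is not a gene length alone. For HNRNPA2B1 and HNRNPA1 it was 14.3 and 7.59 kb, well above the 9.27 and 5.09 kb covered by their exons. Per kb of principal transcript, the order became HNRNPC, HNRNPA2B1, HNRNPA1, HNRNPA3, HNRNPD, HNRNPF, HNRNPH1, HNRNPH3, HNRNPH2 and HNRNPA0. HNRNPA3 and HNRNPD overlapped on that scale. HNRNPC then stood first with 395 ± 1.47 CPM per kb in LARP6 libraries and 405 ± 1.29 CPM per kb in control libraries (SD, n = 3 each). Its principal transcript is 1.714 kb, while the exons of all its isoforms cover 7.31 kb. Counts over all exons were thus divided by a short length, and the first place of HNRNPC depends on that choice. HNRNPH1 had 79.2 ± 2.38 CPM per kb in LARP6 libraries and 71.1 ± 1.40 CPM per kb in control libraries, while HNRNPH2 had 27.2 ± 1.44 CPM per kb in LARP6 libraries and 28.8 ± 1.36 CPM per kb in control libraries (SD, n = 3 each). All 10 genes were well expressed, with a mean FPKM at or above that of 91.1% of the genes in the FPKM table. Together they took 0.414% ± 0.00654 of counts in LARP6 libraries and 0.4003% ± 0.00684 in control libraries (SD, n = 3 each).

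**Figure D5:**
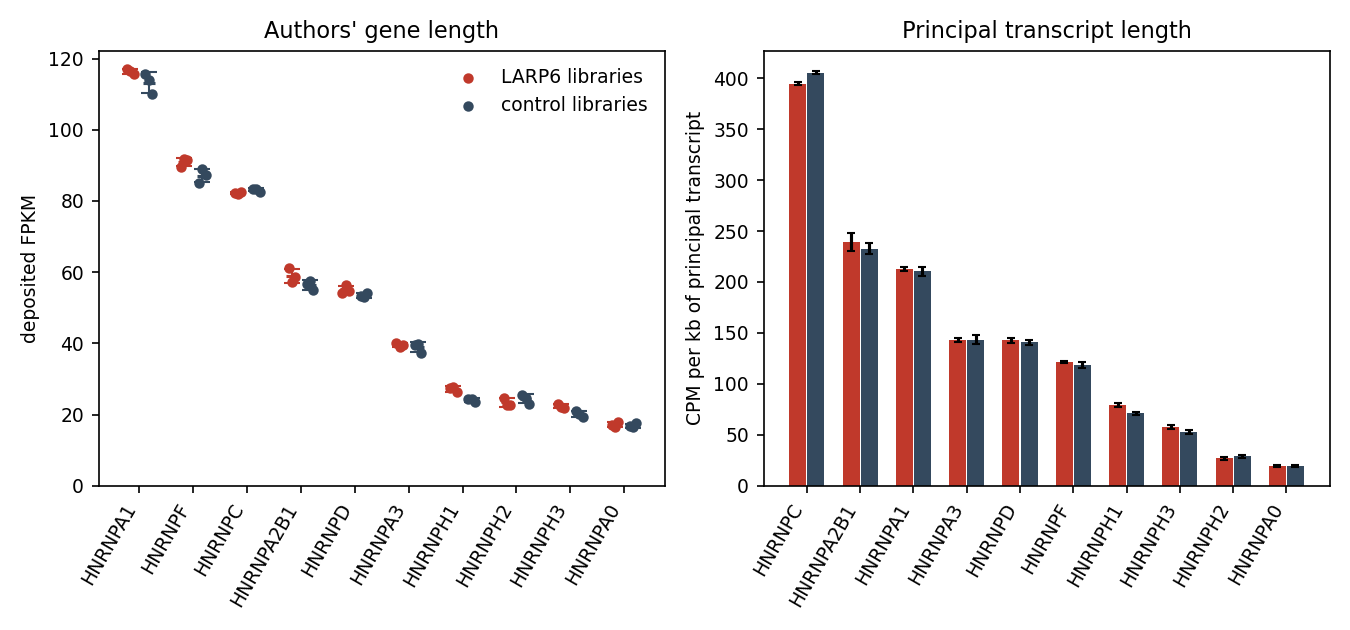
Deposited FPKM of each hnRNP gene by library (left; points are libraries, bars means, whiskers 1 SD) and CPM per kb of principal transcript (right; bars are means of 3 libraries, whiskers 1 SD), LARP6 in red left of control in dark blue. HNRNPA1 leads by FPKM and HNRNPC per kb of principal transcript, while HNRNPH1 is seventh on both scales.

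Across the 6 libraries the 10 genes did not vary as one block. Pearson's r of log2 CPM had a median of 0.04 over the 45 pairs of genes, with 12 pairs above 0.5 and 9 below -0.5. HNRNPH1 and HNRNPH3 had the highest value, 0.91, and HNRNPH1 and HNRNPC the lowest, -0.92. All pairs share the same 6 libraries in 2 groups and the same scaling, so these values restate in part the differences between groups. Of 10566 other well-expressed coding genes, those most like HNRNPH1 over the 6 libraries included CSGALNACT2 (r of 0.996), a chondroitin sulfate synthesis enzyme gene. RBMXL1 (0.995), a retrocopy of the hnRNP G gene, RRM2B (0.994), a ribonucleotide reductase subunit gene, and MED13 (0.992), a Mediator kinase module gene, followed. These values are the top of 10566 over only 6 libraries in 2 groups. CSGALNACT2 and MED13 were called higher, RBMXL1 and RRM2B were not (edgeR adjusted p = 0.381 and 0.365).

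Of 17 further hnRNP genes tested, 0 were called by edgeR, against 6.03% of all genes. DESeq2 and limma-voom also called 0 of the 17, in fits that called 617 and 842 of all 16226 genes. At an unadjusted edgeR p below 0.05 there were 3, and the median log2 fold change of the 17 was -0.01. The closest to the threshold were RALY, a relative of hnRNP C, at -0.08 ± 0.03 (SE, edgeR adjusted p = 0.0650) and HNRNPDL, a relative of hnRNP D, at 0.07 ± 0.03 (SE, edgeR adjusted p = 0.0994). RALY averaged 296 ± 5.16 CPM in LARP6 libraries and 313 ± 6.55 CPM in control libraries (SD, n = 3 each). HNRNPDL averaged 276 ± 2.48 CPM in LARP6 libraries and 262 ± 4.13 CPM in control libraries (SD, n = 3 each). HNRNPDL was called with library size only (0.10, edgeR adjusted p = 0.0114). RALY was called with GC and length offsets (-0.08, edgeR adjusted p = 0.0353) and without LARP6 library 3 (-0.09, edgeR adjusted p = 0.0354).

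Among 8 genes for the import and modification of hnRNP proteins, 2 were lower and 0 higher, against 3.6% and 2.43% of all genes tested, with a median log2 fold change of 0.00. The 2 called genes, PRMT1 and MKNK2, were above the lowest of the 10 hnRNP genes in mean CPM. Of the 3405 genes at or above that level, 11.9% were called lower and 3.49% higher. PRMT1, the main enzyme of asymmetric arginine methylation, had 277 ± 5.68 CPM in LARP6 libraries and 294 ± 9.59 CPM in control libraries (SD, n = 3 each), at -0.09 ± 0.03 (SE, edgeR adjusted p = 0.0425). MKNK2, whose kinase phosphorylates hnRNP A1, had 101 ± 0.891 CPM in LARP6 libraries and 109 ± 5.34 CPM in control libraries (SD, n = 3 each), at -0.11 ± 0.04 (SE, edgeR adjusted p = 0.0450). Neither call was made by DESeq2 (adjusted p = 0.0745 for PRMT1 and 0.0972 for MKNK2) or by limma-voom, and both were lost with library size only. With GC and length offsets PRMT1 was at -0.04 (edgeR adjusted p = 0.448) and MKNK2 at -0.07 (edgeR adjusted p = 0.307). The PRMT1 call was lost without LARP6 library 1 or 2 or control library 2 or 3, at -0.09 to -0.06. The MKNK2 call was lost without LARP6 library 1, 2 or 3 or control library 1 or 2, at -0.11 to -0.07.

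Of 7 other genes for proteins that bind AU-rich elements, as hnRNP D does, 1 was higher and 0 lower, against 2.43% and 3.6% of all genes tested, with a median log2 fold change of 0.07. TIA1, which also regulates splicing from U-rich sites, had 20.9 ± 2.53 CPM in LARP6 libraries and 15.1 ± 0.758 CPM in control libraries (SD, n = 3 each), at 0.47 ± 0.07 (SE, edgeR adjusted p = 1.06e-06). TIA1 was not called on log2(FPKM + 1) with limma (0.34, adjusted p = 0.0903). Of 10 m6A writer, eraser and reader genes, 1 was higher and 1 lower, against 2.43% and 3.6% of all genes tested, with a median of 0.01. YTHDC1, the nuclear reader of m6A, averaged 44.4 ± 2.66 CPM in LARP6 libraries and 39.2 ± 1.32 CPM in control libraries (SD, n = 3 each), at 0.18 ± 0.05 (SE, edgeR adjusted p = 0.0160). It lost its call with GC and length offsets (0.10) and without LARP6 library 1 or 2 or control library 2 (0.14 to 0.16). ALKBH5, an eraser of m6A, averaged 119.99 ± 1.86 CPM in LARP6 libraries and 131 ± 2.51 CPM in control libraries (SD, n = 3 each), at -0.12 ± 0.03 (SE, edgeR adjusted p = 0.00966). ALKBH5 was above the lowest of the 10 hnRNP genes in mean CPM, where 11.9% of 3405 genes were called lower. The ALKBH5 call was lost without LARP6 library 2 (-0.11, edgeR adjusted p = 0.101) and without control library 3 (-0.11, edgeR adjusted p = 0.0582). It was also lost with library size only (-0.10, edgeR adjusted p = 0.0519) and on log2(FPKM + 1) with limma (-0.09, adjusted p = 0.140).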

How the data were processed

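The authors deposited read counts per gene and FPKM values per gene (fragments scaled to gene length and library size) for 6 libraries. Per the labels' protocols, DNase-treated RNA was made into strand-keeping mRNA libraries and read in pairs of 150 bases. The submitters' processing notes name HISAT2, DESeq2 and GRCh38, without roles or versions. Not given in the sources used here are the program that counted reads, its annotation and whether it used strand.

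The deposited counts went into edgeR 4.0.16 (R 4.3.3), with its expression filter, TMM scaling, the robust quasi-likelihood test without covariates, and Benjamini-Hochberg adjustment over 16226 genes. CPM uses TMM-scaled library sizes. Standard errors are the log2 fold change over the root of F, and 95% intervals are normal. All 10 hnRNP genes are described. From the other lists, up to 4 called genes, ranked by p, are named, and the first 2 by p in a list without calls. Likeness to HNRNPH1 covers coding genes averaging 5 CPM or more; of the 5 most alike, 1 is not reported here. The members and lists were chosen with earlier results of these data known. GENCODE v29 gave coordinates, lengths, GC content and transcript sequences. Gene ID versions are those of the count table and differ from GENCODE v29 for all of the 10 but HNRNPH1. The counts thus rest on another annotation release, whose gene models may differ. DESeq2 1.42.0, limma 3.58.1, other scalings and filters, FPKM, offsets, a replicate block and leaving out each library were the alternatives. The edgeR, DESeq2 and limma-voom fits were tested on simulated counts, drawn without a trend on GC content or length and without a replicate effect. The outcome of those runs is not reported here, and no call rests on it.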

Additional observations from a re-analysis of the deposited data

How the results depend on the processing

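HNRNPH1 was called in 20 of 22 alternatives and HNRNPH3 in 14. The genes called higher of the 10 were 0 on log2(FPKM + 1) and log2(FPKM + 0.1), 1 at an adjusted p below 0.01, 1 with GC and length offsets (1 with the block added, 1 with median transcripts), and 1 to 2 with each library left out. Genes called lower were 2 with GC and length offsets, 4 with the block added (HNRNPA0, HNRNPA3, HNRNPC and HNRNPH2) and 1 with median transcripts. In the same order, 2.54%, 3.36% and 2.46% of all genes were called lower and 1.04%, 1.26% and 1.15% higher. All genes called (979) became 617 with DESeq2, 73 and 85 on FPKM plus 1 and 0.1, 443 below 0.01, 581 with offsets (751 with the block added), 585 with median transcripts and 456 to 1040 with a library left out. The cause of these moves was not tested. The log2 difference in the ratio of HNRNPH1 to HNRNPH2 was 0.21 to 0.27 and that to HNRNPF 0.10 to 0.15 in 7 alternatives. These were counts in place of FPKM and each library left out. Both ratios were apart between groups, and a gene's FPKM follows its counts, so none of the 7 could turn the direction.

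Log2 fold changes near 0 turned sign. HNRNPA0 was 0.000391 with RLE scaling, 0.0257 with library size only, 0.00138 with CPM above 1, 0.000443 with DESeq2, 0.0229 and 0.0241 on FPKM plus 1 and 0.1, and -0.0338 to 0.0343 with a library left out. HNRNPA3 was 0.000156, 0.0253, 0.0012, 0.000165, 0.0236 and 0.0242 in the same order, 0.000322 with limma-voom, and -0.0246 to 0.0172 with a library left out. With GC and length offsets, with the replicate block added and with median transcripts, HNRNPA1 was -0.0334, -0.0334 and -0.0199, and HNRNPA2B1 was -0.0336, -0.034 and -0.0249. HNRNPD was -0.0275 with offsets and -0.0273 with the block added.

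Of the other lists, the 17 further hnRNP genes had 2 calls with library size only, 2 with the replicate block (RALY and HNRNPDL, edgeR adjusted p = 0.0203 and 0.0303), 2 with offsets, 2 with offsets and block, 1 with median transcripts and 0 to 1 with a library left out. The import and modification genes had 1 with library size only, 0 without a filter, with DESeq2, limma-voom, FPKM, below 0.01 or with any offsets, and 0 to 1 with a library left out. The AU-rich element genes had 3 with library size only, 2 with CPM above 1, 0 on FPKM, 3 with the replicate block and 1 to 2 with a library left out. The m6A genes had 1 with library size only, 0 on FPKM, 1 below 0.01, 1 with any offsets and 0 to 2 with a library left out.

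Same-numbered libraries correlated by 0.0757, 0.0419 and 0.208 in their deviations, and LARP6 library 2 correlated best with control library 1, so not every pair passed 0.1 and the numbers were not taken as pairs. The replicate block raised the genes called to 1345 and called HNRNPH1 (0.16) and HNRNPH3 (0.12) of the 10.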
